A study of Rattus norvegicus with 18 samples.

Results

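The hepatic expression of 8 genes of ammonia disposal was examined in rats with diet- and toxin-induced steatohepatitis: Cps1, Otc, Ass1, Asl, Arg1, Nags, Slc25a15 and Gls2. They were chosen by gene symbol, as the enzymes of the urea cycle together with the synthase that makes its activator, the mitochondrial ornithine carrier and the periportal glutaminase. These are 8 of the 32623 genes in the tables, and all 8 were among the 12904 genes with enough reads to be tested. Whole-liver RNA from 18 male Wistar rats was sequenced, with 6 rats in each of 3 groups. Control rats received standard chow for 12 weeks. NASH rats followed a protocol of 10 weeks in total, made of 6 weeks of carbon tetrachloride (CCl4) inhalation plus oral phenobarbital given in water, followed by 4 weeks of a high-fat, high-cholesterol diet (HFCD). NASH-CH rats, described by the study as having cirrhosis, followed a protocol of 24 weeks, made of 8 weeks of CCl4 and phenobarbital and then 16 weeks of HFCD with both agents continued. CCl4, phenobarbital and HFCD were given to both NASH groups and to no control, so their parts cannot be told apart, and the duration differed between all 3 groups. This schedule is that of the study's methods, whereas the deposited design text gives CCl4 together with the diet for all 10 and 24 weeks. By the methods, NASH rats, unlike NASH-CH rats, were without CCl4 and phenobarbital in their last 4 weeks. Stage and recent exposure then cannot be told apart.

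The liver turns ammonia, which is toxic to the brain, into urea and glutamine. In periportal hepatocytes, which line the inflow of portal blood, Gls2 releases ammonia from glutamine and Cps1 fixes ammonia as carbamoyl phosphate in mitochondria, provided that N-acetylglutamate, the product of Nags, is present. Otc, Ass1, Asl and Arg1 then complete the cycle, with Slc25a15 returning ornithine to the mitochondrion. Ammonia that escapes is captured downstream by glutamine synthetase (Glul) in a thin layer of pericentral hepatocytes around the central vein, and loss of this clearance is a known feature of cirrhosis with raised blood ammonia.

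Promoter sequence was available in the RefSeq tables (rat build GRCr8) for 7 of the 8 genes, and the 250 bases before the transcription start are shown for Cps1 and Ass1, which open the mitochondrial and the cytosolic part of the cycle, and for the second listed start of Glul, the nitrogen gene with the largest fall in NASH-CH against control. Capitals mark matches, on either strand, to motifs of factors known to act on liver genes or of the basal promoter. The Cps1 window (chr9:76063613-76063862, plus strand), the Ass1 window (chr3:35149480-35149729, plus strand) and the Glul window (chr13:68575816-68576065, plus strand) read as follows.
Cps1: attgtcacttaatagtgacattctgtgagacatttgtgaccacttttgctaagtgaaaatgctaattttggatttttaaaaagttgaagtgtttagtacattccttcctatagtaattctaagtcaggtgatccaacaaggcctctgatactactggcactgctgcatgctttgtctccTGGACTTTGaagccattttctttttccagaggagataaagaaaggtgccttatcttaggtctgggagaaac
Ass1: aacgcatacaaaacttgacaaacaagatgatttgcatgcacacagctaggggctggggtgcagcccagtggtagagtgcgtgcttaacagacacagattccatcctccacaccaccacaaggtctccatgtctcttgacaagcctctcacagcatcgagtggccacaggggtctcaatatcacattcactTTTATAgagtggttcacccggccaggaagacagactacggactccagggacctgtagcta
Glul: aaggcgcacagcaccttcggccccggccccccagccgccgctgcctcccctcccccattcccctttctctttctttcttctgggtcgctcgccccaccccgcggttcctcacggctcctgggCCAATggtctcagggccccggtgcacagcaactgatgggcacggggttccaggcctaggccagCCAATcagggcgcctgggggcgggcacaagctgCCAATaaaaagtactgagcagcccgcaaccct

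In the Cps1 window the capitals are 1 match to an HNF4 motif, CAAAGTCCA, on the reverse strand at 71 to 63 bases before the start, a motif held by 0.338% of the 33469 windows of this length. In the Ass1 window they are a TATAAA match on the reverse strand at 60 to 55 bases before the start, found in 12.9% of windows. In the Glul window they are 3 CCAAT boxes at 128, 65 and 32 bases before the start, and 34.0% of windows hold at least 1. The first listed start of Glul, not shown, held 1 CCAAT box. Of the other members, Gls2 and Slc25a15 held a CCAAT box each, and for Gls2 this was at the first of its listed starts only. The C/EBP motif TTGCNNAA (9.22% of windows), the FOX motif TGTTTAC (3.21%) and the cyclic AMP response element TGACGTCA (1.59%) matched no member window. None of the marked matches overlapped another motif. These matches describe the letters in the windows only.

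The libraries held between 19498516 and 60117806 counts. The NASH-CH libraries were the deepest, with a median of 48582057 counts against 25631238 in control and 23936219 in NASH rats, so depth and group cannot be told apart. The smallest count of any member in any rat was 453, for Nags. Levels are given as CPM, the counts of a gene scaled to a common library size, on library sizes scaled by the trimmed mean of M-values (TMM), and they are compared between rats and not between genes, because gene lengths were not used. The liver identity of the samples was clear from 8 hepatocyte markers, none of which was at 0, with a summed level of 135547 to 194434 CPM in control rats, 97699 to 158943 in NASH rats and 91444 to 148732 in NASH-CH rats.

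None of the 8 genes differed between groups past the threshold of an adjusted p of 0.05. In NASH against control rats, limma-voom called 0 of 8 members, where 3.12% of all tested genes were called, and 1 of 8 members, Ass1, had an unadjusted p under 0.05, against 21.5% of all genes. The edgeR test likewise called 0 (5.05% of all genes), with 1 member under an unadjusted 0.05 (24.1% of all genes). DESeq2 also called 0 (9.52%), with 1 under an unadjusted 0.05 (24.3%). In NASH-CH against control rats the 3 tools called 0 of 8 members and found 0 under an unadjusted 0.05. Of all tested genes they called 17.0% (limma-voom), 19.0% (edgeR) and 22.0% (DESeq2), with 31.7%, 32.6% and 33.1% under an unadjusted 0.05. In NASH-CH against NASH rats the counts were again 0 and 0 of 8 with each tool, beside 4.20%, 4.78% and 7.35% of all genes called and 17.5%, 18.3% and 18.8% under an unadjusted 0.05. The ranges of the 2 groups overlapped for every member in each comparison. Of all tested genes, 3.16%, 7.11% and 3.46% had groups that did not overlap in the 3 comparisons in turn. At such shares few of any 8 genes would be without overlap, so this does not set the members apart.

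A missed threshold leaves room for moderate differences, and the 95% intervals show how much. Over the 8 members, the intervals of the fold reached from 0.556 to 1.87 times control in NASH rats, from 0.613 to 1.75 times control in NASH-CH rats, and from 0.642 to 1.52 times NASH in NASH-CH rats. The median log2 fold change of the members was 0.06, 0.07 and 0.06 in the 3 comparisons, beside 0.01, 0.01 and 0.01 over all tested genes. Members lay on both sides of 0, with 5 above and 3 below in NASH, 4 and 4 in NASH-CH, and 5 and 3 between the 2 models.

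**Figure D1:**
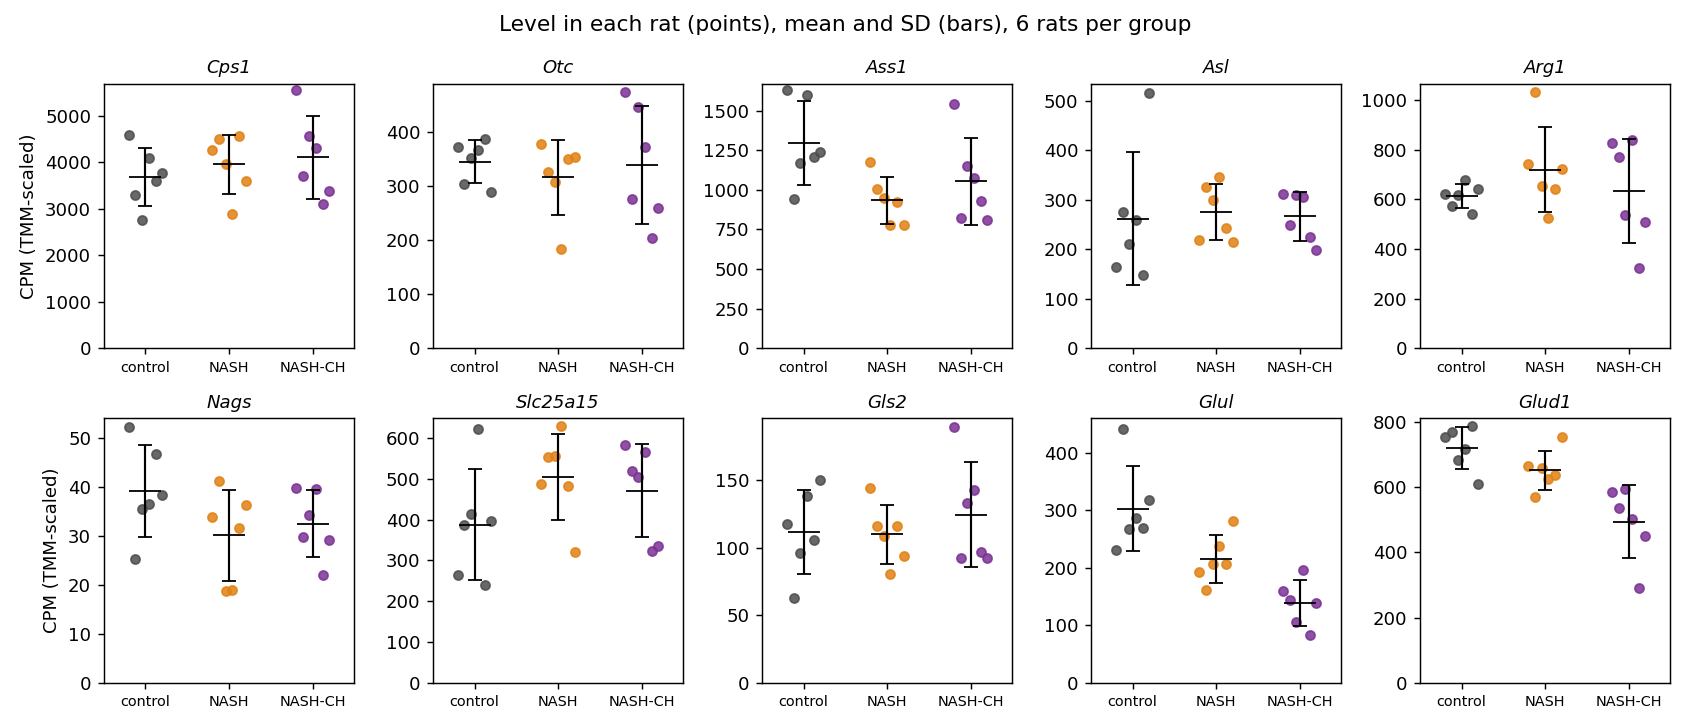
Level of the 8 members and of Glul and Glud1 in each rat, in CPM on TMM-scaled library sizes (each axis starts at 0); points are rats, in the order of their labels, and bars are the mean and SD of 6 rats. For every member the points of the 3 groups overlap, while the 6 NASH-CH rats lie at 84.0 to 197 CPM for Glul, below all 6 control rats at 231 to 442 CPM.

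The first steps of the pathway deliver ammonia to the cycle. Cps1, the rate-limiting enzyme and one of the most abundant proteins of liver mitochondria, ranged in control rats from 2769 CPM through a median of 3687 to 4589, in NASH rats from 2890 through 4112 to 4567, and in NASH-CH rats from 3103 through 4010 to 5558. The ranges of the 3 groups overlapped for most of their length, and the highest level was that of NASH-CH rat 1. Its log2 fold change was 0.10 in NASH (SE 0.16, adjusted p = 0.750, limma-voom) and 0.15 in NASH-CH (SE 0.16, adjusted p = 0.562), with a 95% interval of 0.875 to 1.40 times control in the latter. Of all counts, unscaled, Cps1 took 0.330% ± 0.060 among controls, 0.412% ± 0.049 among NASH and 0.434% ± 0.058 among NASH-CH rats (SD, n = 6). With libraries scaled by their total alone, the Cps1 difference in NASH-CH rose to 0.41 on the log2 scale and passed (adjusted p = 0.0320, limma-voom), but this scaling also moved the median of all tested genes to 0.27.

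Nags, which makes the allosteric activator that Cps1 needs, also had overlapping groups. Its levels were 25.3, 37.3 and 52.2 CPM (lowest, median and highest) in control, 18.6, 32.8 and 41.0 in NASH, and 22.0, 31.9 and 39.7 in NASH-CH rats. Both disease groups had lower medians than control, with most of their range inside that of the control rats. Nags differed by −0.41 on the log2 scale in NASH (SE 0.21, adjusted p = 0.270, limma-voom) and −0.25 in NASH-CH (SE 0.22, adjusted p = 0.438). Gls2, the liver-type glutaminase that feeds ammonia to Cps1, had medians of 112, 113 and 115 CPM in control, NASH and NASH-CH rats. Its ranges were 63.0 to 150, 80.3 to 144 and 92.7 to 190 CPM, and the highest value was again that of NASH-CH rat 1. The log2 fold change of Gls2 was 0.01 in NASH (SE 0.20) and 0.16 in NASH-CH rats (SE 0.21), neither past the threshold.

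Otc joins carbamoyl phosphate to ornithine, and Slc25a15 carries ornithine in and citrulline out of the mitochondrion. Otc was tightly grouped in control rats, at 290, 359 and 388 CPM (lowest, median, highest), and more spread in NASH, at 184, 339 and 378, and in NASH-CH rats, at 205, 325 and 476. NASH-CH rats 1 and 5 marked the highest and the lowest level of their group. Otc differed from control by −0.16 on the log2 scale in NASH (SE 0.19, adjusted p = 0.674, limma-voom) and −0.08 in NASH-CH (SE 0.20, adjusted p = 0.813).

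Slc25a15 had the largest upward difference of the members, with 240, 391 and 622 CPM in control, 322, 520 and 628 in NASH, and 322, 512 and 582 in NASH-CH rats. The lower ends of both disease groups lay inside the control range, and control rat 4 was close to the highest NASH rat. Slc25a15 differed from control by 0.44 on the log2 scale in NASH (SE 0.22, adjusted p = 0.253, limma-voom) and 0.33 in NASH-CH (SE 0.23, adjusted p = 0.328). The level of Slc25a15 is uncertain, since its expected counts were whole numbers, within 0.001, in 0 of 18 rats, against 18 of 18 for each other member, so some of its reads were divided with another gene. Its known relative Slc25a2 was listed at 0.129 to 1.04 CPM over the 18 rats.

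Ass1, which builds argininosuccinate in the cytosol and is often taken as the controlling step of that part of the cycle, had the only member difference with an unadjusted p under 0.05. Its levels were 941, 1224 and 1629 CPM (lowest, median, highest) in control, 780, 934 and 1178 in NASH, and 807, 1003 and 1540 in NASH-CH rats. All 6 NASH rats were below the control mean of 1297 CPM, although the groups overlapped. In NASH its log2 fold change was −0.46 (SE 0.17, adjusted p = 0.117, limma-voom), or 0.725 times control with a 95% interval of 0.570 to 0.923. In NASH-CH it was −0.31 (SE 0.17, adjusted p = 0.222), with 5 of 6 rats below the control mean. Leaving out each rat in turn gave adjusted p-values of 0.0659 to 0.245 for Ass1 in NASH, so no single rat decided that it missed the threshold.

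Asl splits argininosuccinate into arginine and fumarate. It ranged over 148, 235 and 516 CPM in control, 216, 272 and 347 in NASH, and 199, 278 and 312 in NASH-CH rats. The high control value came from rat 6 alone, with the next control rat at 276 CPM. Asl differed from control by 0.20 on the log2 scale in NASH (SE 0.24, adjusted p = 0.672, limma-voom) and 0.16 in NASH-CH (SE 0.24, adjusted p = 0.692), the largest standard errors among the members.

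Arg1 releases urea from arginine and regenerates ornithine. It was narrowly spread in control rats, at 541, 621 and 678 CPM, and wider in NASH, at 523, 688 and 1031, and in NASH-CH rats, at 323, 653 and 838. The medians of the 3 groups lay close together while the extremes came from NASH rat 2 and NASH-CH rat 5. Arg1 differed by 0.21 on the log2 scale in NASH (SE 0.19, adjusted p = 0.581, limma-voom), −0.01 in NASH-CH (SE 0.20, adjusted p = 0.979) and −0.22 between the models (SE 0.20, adjusted p = 0.632).

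**Figure D2:**
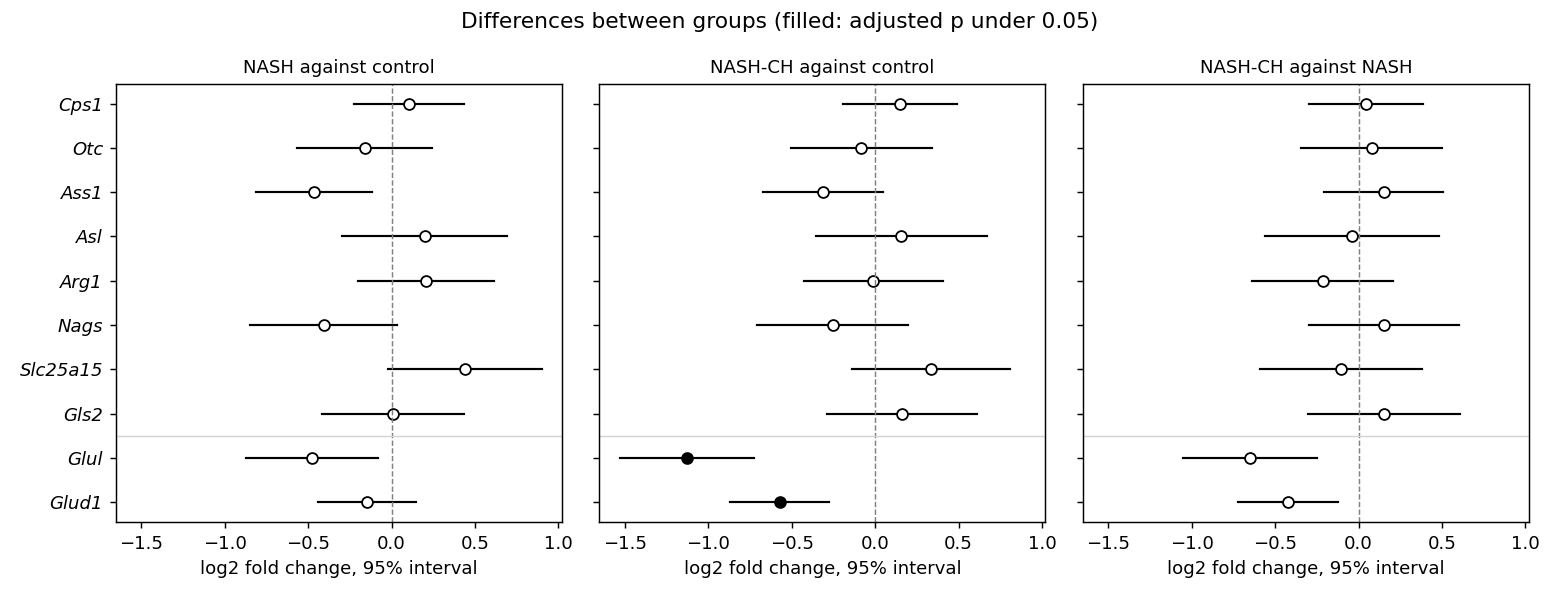
Log2 fold change (point) and 95% interval (line) by limma-voom for the 8 members, above the grey line, and for Glul and Glud1, below it, in the 3 comparisons of 6 against 6 rats; filled points have an adjusted p under 0.05. The member intervals include 0 except that of Ass1 in NASH rats (−0.81 to −0.12), and only Glul and Glud1 in NASH-CH against control are filled.

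Most pairs of members varied together from rat to rat within groups. Over the 18 rats, the deviations of log2 CPM from the group mean were correlated with a median Pearson's r of 0.51 over the 28 pairs of members, with 25 pairs above 0 and a range of −0.21 to 0.88. The closest pairs were Ass1 with Gls2 (0.88), Cps1 with Ass1 (0.81) and Cps1 with Otc (0.78). Asl and Slc25a15 stood apart from that block and went with each other (0.65), while Asl had an r of −0.21 with Nags and −0.13 with Otc. NASH-CH rat 1 had the highest level of its group for 7 of the 8 members, and NASH-CH rat 5 the lowest for 5 of them, namely Cps1, Otc, Arg1, Nags and Slc25a15. All pairs share the libraries and their scaling: the r of each member with the log2 TMM factor ran from −0.79 for Otc to −0.13 for Slc25a15, and was 0.32 for Asl. Without NASH-CH rats 5 and 6, which had the largest TMM factors, the median over the pairs was 0.35 in 16 rats. Pairs of Asl or Slc25a15 with Otc or Nags were then at −0.31 to −0.48, and Ass1 with Gls2 was at 0.86. No such median is given here for pairs of all tested genes. The part of the scaling in these correlations was not tested.

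**Figure D3:**
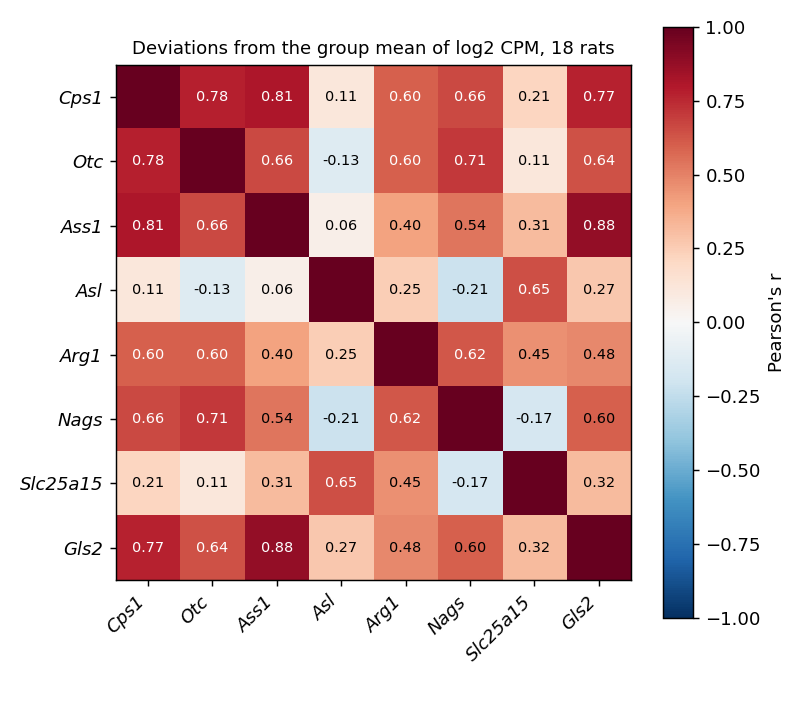
Pearson's r between members, computed on each rat's deviation from its group mean of log2 CPM over 18 rats, on a colour scale from −1 to 1. Cps1, Otc, Ass1, Nags and Gls2 form a block of r from 0.54 to 0.88, and Asl with Slc25a15 (0.65) lies outside it.

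Measured over the same deviations, 3 tested genes were most like each member. Cps1 was closest to Dcst1 (r = 0.89), to Pccb, a subunit of propionyl-CoA carboxylase (0.86), and to Abat, the transaminase of GABA breakdown (0.84). Otc was closest to Rida, a deaminase of reactive imines (0.94), then to C8g (0.92) and Mgst1 (0.92). Ass1 was closest to Gldc of the glycine cleavage system (0.89), to Hpd of tyrosine breakdown (0.89) and to Gls2 (0.88). Gls2 in turn was closest to Ass1 (0.88), Jmjd7 (0.87) and Hpd (0.87), so that Ass1 and Gls2 stood on each other's lists.

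Arg1 was closest to Nr1i2, the xenobiotic receptor PXR (0.96), then to Lrp3 (0.88) and Kptn (0.88). Nags was closest to Med4 (0.88), Prdx6 (0.88) and Mpdu1 (0.86). Slc25a15 followed Pptc7 (0.95), Coq10b (0.92) and Papd7 (0.90), and Asl followed Pla2g12a (0.94), Prkch (0.89) and the metallothionein Mt2A (0.89). With 12904 genes compared over 18 rats, high values arise for any gene, and these likenesses are a description. The spread of the members within groups, as a pooled SD of log2 CPM, ran from 0.27 for Cps1 to 0.44 for Asl, beside a median of 0.29 over all tested genes.

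Outside the cycle, Glul, the glutamine synthetase of the pericentral route, fell in NASH-CH rats. It was at 231, 278 and 442 CPM (lowest, median, highest) in control, 162, 207 and 282 in NASH, and 84.0, 142 and 197 in NASH-CH rats. All 6 NASH-CH rats lay below all 6 control rats, and NASH rats lay between with overlap on both sides. The log2 fold change in NASH-CH was −1.13 (SE 0.19, adjusted p = 0.000655, limma-voom), or 0.457 times control with a 95% interval of 0.346 to 0.605. In NASH it was −0.48 (SE 0.19, adjusted p = 0.152), and between the models −0.65 (SE 0.19, adjusted p = 0.0613). The difference between the models passed with DESeq2 (adjusted p = 0.0218), without a filter on low counts (0.0270), without NASH rat 2 (0.0494) and without NASH-CH rat 4 (0.0230). The Glul call in NASH-CH against control held in 11 of 11 other settings (highest adjusted p = 0.00660) and in each of the 12 fits that left out 1 rat. The libraries are bulk tissue, so fewer Glul-expressing cells and less Glul RNA per cell cannot be told apart, here or for any gene below.

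The ratio of Cps1 to Glul counts in the same rat sets the 2 ammonia-fixing enzymes against each other, and it does not depend on library scaling. Control rats had a median ratio of 12.6 (range 7.45 to 19.9), NASH rats of 20.5 (12.1 to 27.8) and NASH-CH rats of 29.8 (22.0 to 43.3). Every NASH-CH rat exceeded every control rat. On the log2 scale the mean difference was 1.30 in NASH-CH against control, a 2.46-fold higher ratio, with a two-sided exact permutation p of 0.00216, the smallest that 6 against 6 rats allow, and 0.0195 after adjustment over the 9 ratio tests. In NASH against control it was 0.59 (exact permutation p = 0.0628, adjusted 0.188, 5 of 6 rats above the control mean), and in NASH-CH against NASH 0.71 (exact permutation p = 0.0216, adjusted 0.0974). Between the models the test passed on leaving out NASH rat 2 (adjusted p = 0.0390). In NASH-CH against control the difference of medians was 1.24 and missed the adjusted threshold (exact permutation p = 0.0130, adjusted 0.117). Cps1 itself was not called, at medians of 3687 CPM in control and 4010 in NASH-CH rats, while the Glul medians were 278 and 142 CPM. With TMM scaling the higher ratio thus largely repeats the fall of Glul and is no separate result on Cps1. The split between the 2 genes, unlike the ratio, depends on scaling. With libraries scaled by their total alone, Cps1 differed by 0.41 on the log2 scale (adjusted p = 0.0320, limma-voom), and the median of all tested genes was 0.27.

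**Figure D4:**
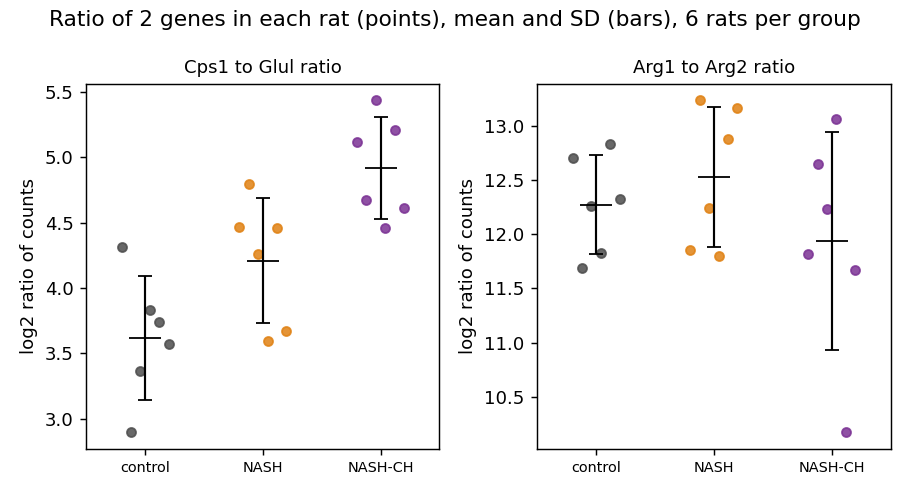
Log2 ratio of the counts of 2 genes in each rat, for Cps1 to Glul and Arg1 to Arg2 (axes do not start at 0); points are rats and bars are the mean and SD of 6 rats. The Cps1 to Glul ratio is higher in all 6 NASH-CH rats (4.46 to 5.44) than in any control rat (2.90 to 4.31), and the groups overlap for the Arg1 to Arg2 ratio.

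The ratio of Arg1 to Arg2 set the liver arginase against its mitochondrial counterpart. Arg2 had 1 to 21 counts a rat and was too low to be tested. The Arg1 to Arg2 ratio, which rests on those few Arg2 counts, had mean log2 values of 12.27, 12.53 and 11.93 in the 3 groups (smallest exact permutation p = 0.251, adjusted 0.565).

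Of 32 further genes of urea, glutamine, glutamate, arginine and ammonia handling, 31 were in the tables and 28 were tested. In NASH-CH against control, 0 were higher, 2 were lower and 26 did not pass, with a median log2 fold change of 0.04. Over all tested genes, 17.0% were called in that comparison. Besides Glul, the lower gene was Glud1, the glutamate dehydrogenase that releases or binds ammonia in mitochondria. Glud1 ranged over 609, 734 and 786 CPM in control, 568, 648 and 752 in NASH, and 291, 520 and 594 in NASH-CH rats. All 6 NASH-CH rats were below all 6 control rats. Its log2 fold change in NASH-CH was −0.57 (SE 0.14, adjusted p = 0.0109, limma-voom), which held in all 11 other settings and all 12 fits without 1 rat, and −0.15 in NASH (SE 0.14, adjusted p = 0.583).

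In NASH against control, 1 of the 28 genes was higher and 0 were lower, with a median log2 fold change of −0.00071. Over all tested genes, 3.12% were called in that comparison. The higher gene was Slc1a2, a plasma membrane glutamate carrier that pericentral hepatocytes use. Slc1a2 was at 0.703, 1.94 and 3.05 CPM in control, 5.93, 7.92 and 11.7 in NASH, and 1.87, 4.65 and 13.6 in NASH-CH rats. Every NASH rat exceeded every control rat, and NASH-CH rats overlapped both. Slc1a2 rose by 2.25 on the log2 scale in NASH (SE 0.52, adjusted p = 0.0269, limma-voom), and its difference in NASH-CH was 1.42 (SE 0.52, adjusted p = 0.0663). The NASH call was lost without control rat 1, 3, 4 or 5 or NASH rat 3, 4 or 5 (adjusted p up to 0.0687), and the NASH-CH difference passed without NASH-CH rat 5 (adjusted p = 0.0125) and in 9 of 11 other settings.

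In NASH-CH against NASH, 0 of the 28 genes were higher and 1 was lower, with a median log2 fold change of −0.09. Over all tested genes, 4.20% were called in that comparison. The lower gene was Rhbg, an ammonia channel of pericentral hepatocytes, at medians of 4.27, 5.99 and 2.31 CPM in control, NASH and NASH-CH rats. The groups overlapped, with NASH-CH rat 2 at 6.79 CPM. Rhbg differed between the models on the log2 scale by −1.23 (SE 0.31, adjusted p = 0.0309, limma-voom). The call was lost without NASH rat 1, 2, 5 or 6 or NASH-CH rat 3, 5 or 6 (adjusted p up to 0.0755) and in 5 of 11 other settings. The counts of this list were not stable, with 1 to 4 genes past the threshold over the other settings in NASH, 2 to 5 in NASH-CH and 0 to 3 between the models.

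**Figure D5:**
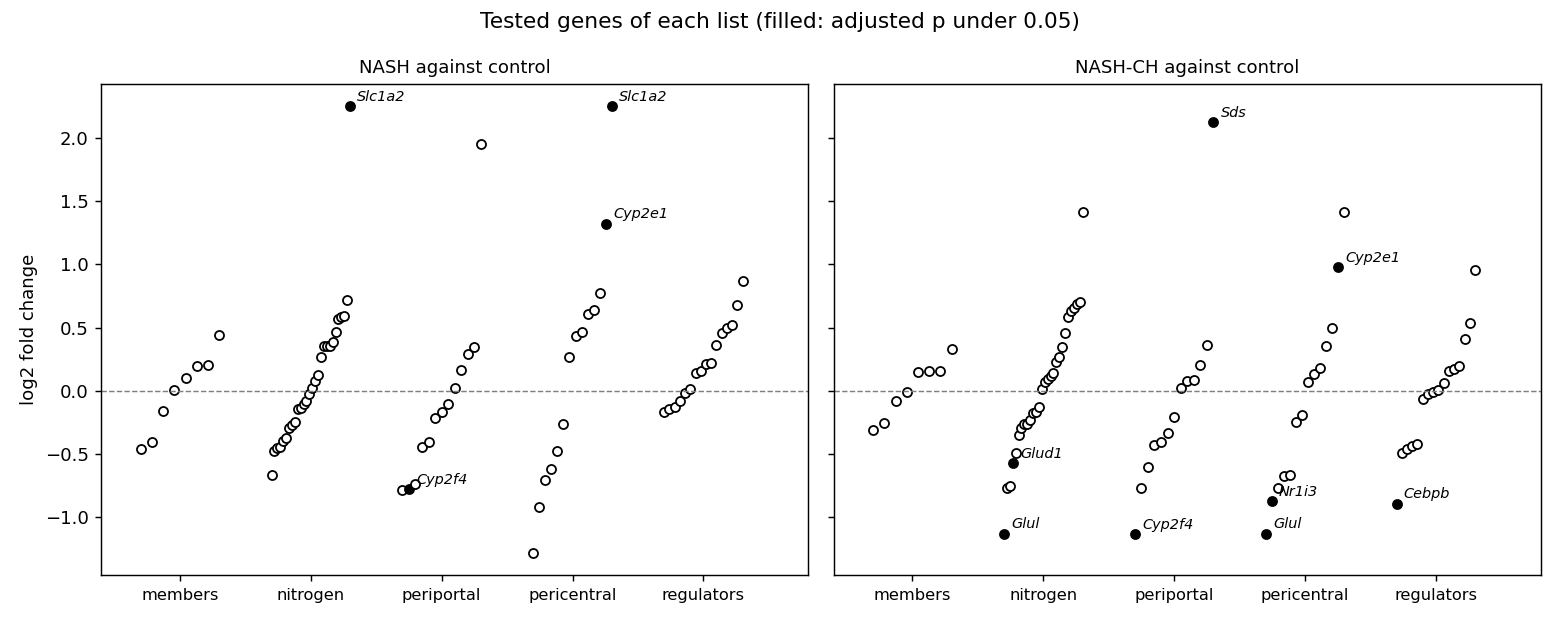
Log2 fold change by limma-voom of each tested gene of 5 lists (members, further nitrogen genes, periportal, pericentral and regulator genes) in NASH against control and NASH-CH against control; each point is a gene, ordered by value within its list, filled and named where the adjusted p was under 0.05. No member is filled, and the lowest filled nitrogen gene is Glul in NASH-CH rats (−1.13); Glul, Slc1a2, Oat and Rhbg stand in both the nitrogen and the pericentral list.

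Other periportal genes showed no common direction. Of 13 tested, 1 was lower in NASH and 1 higher and 1 lower in NASH-CH against control, with medians of −0.16 and −0.21. Between the models 0 passed. Over all tested genes, 3.12%, 17.0% and 4.20% were called in the 3 comparisons in turn. Cyp2f4, a periportal cytochrome, was at 22.3 to 40.4 CPM in control rats, 12.7 to 22.0 in NASH rats and 10.3 to 19.4 in NASH-CH rats, with control rats above both other groups. Its log2 fold change was −0.78 in NASH (adjusted p = 0.0275, limma-voom) and −1.14 in NASH-CH (adjusted p = 0.000294). The NASH call for Cyp2f4 was lost without control rat 1, 3, 4 or 5 or NASH rat 2, 3, 4 or 5 (adjusted p up to 0.0795). Sds, the serine dehydratase that sends amino acid carbon to glucose, was higher in NASH-CH (2.13, adjusted p = 0.0196), with levels of 14.1 to 203 CPM in control and 142 to 343 in NASH-CH rats. In NASH its difference was 1.95 (adjusted p = 0.0600), which passed without control rat 4 or 6 (adjusted p = 0.0425 and 0.0111) and in 3 of 11 other settings (0.0230 to 0.0464). Its NASH-CH call missed under edgeR (adjusted p = 0.0511) and with the pair of groups fitted alone (0.0591).

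Pericentral genes past the threshold also lay in both directions. Of 14 tested, 4 of which (Glul, Slc1a2, Oat and Rhbg) are also counted among the nitrogen genes, 2 were higher and 0 lower in NASH, 1 higher and 2 lower in NASH-CH, and 0 higher and 2 lower between the models, with medians of 0.35, −0.06 and −0.28. Beside these, 3.12%, 17.0% and 4.20% of all tested genes were called in the 3 comparisons in turn. The calls over all tested genes in NASH-CH against control were 1082 higher and 1110 lower. Over the other settings 2 to 3, 3 to 5 and 1 to 4 pericentral genes passed in the 3 comparisons. For periportal genes the ranges were 1 to 3, 1 to 3 and 0 to 1. Cyp2e1, the cytochrome that activates CCl4, had medians of 709, 1908 and 1779 CPM in control, NASH and NASH-CH rats, although control rat 6 was at 1954. It was higher in NASH (1.32, adjusted p = 0.0121, limma-voom) and in NASH-CH (0.98, adjusted p = 0.0181), in the opposite direction to Glul. Nr1i3, the receptor CAR through which phenobarbital acts, had medians of 12.4, 16.3 and 5.96 CPM. It was lower in NASH-CH than in NASH with no overlap (−1.51, adjusted p = 0.000901), and lower than in control (−0.87, adjusted p = 0.0289), a call lost without control rat 1, 5 or 6 or NASH-CH rat 3 or 5 (adjusted p up to 0.0675), with total scaling and with the pair of groups fitted alone (0.0548).

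Of a list of factors and receptors known to act on urea cycle genes, with the hormone-responsive enzyme gene Tat, 16 rows for 15 genes were tested, and 0 passed in NASH. In NASH-CH 1 was lower against both other groups, which was Cebpb, a C/EBP factor of the hepatic response to hormones and inflammation. Over all tested genes, 3.12% were called in NASH and 17.0% in NASH-CH against control, and 4.20% between the models. Cebpb was at 42.1, 58.8 and 73.3 CPM in control, 42.9, 69.2 and 82.2 in NASH, and 16.2, 36.0 and 37.5 in NASH-CH rats. The NASH-CH rats lay below every rat of the other groups. Its log2 fold change was −0.89 against control (SE 0.20, adjusted p = 0.00575, limma-voom) and −1.03 against NASH (SE 0.20, adjusted p = 0.00484), and both calls held in the 11 other settings and 12 fits without 1 rat. The number of genes of this list past the threshold was less stable, with 0 to 4 over the other settings in NASH, 1 to 4 in NASH-CH and 1 to 2 between the models, and with 0 to 2, 1 to 2 and 1 to 3 when 1 rat was left out.

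Cell type markers also differed between the groups in which Glul and Glud1 fell. Over all tested genes, 3.12% were called in NASH and 17.0% in NASH-CH, both against control. Of 8 hepatocyte markers, 1 (Apoa1) was lower in NASH and 3 (Alb, Ttr and Apoa1) were lower in NASH-CH, with 0 higher. Of 7 macrophage markers, 1 (Marco) was lower in NASH and 6 (Cd163, Clec4f, Csf1r, Cd5l, Vsig4 and Marco) in NASH-CH. The 7 summed to 149 to 235 CPM in NASH-CH against 250 to 464 in control rats. Clec4f alone averaged 73.2 CPM in NASH-CH and 113 in control rats. The remaining marker, Cd68, did not pass, at means of 12.7 CPM in NASH-CH and 11.6 in control rats. By protein staining, the study counted more CD68- and CD163-positive macrophages in NASH-CH than in control rats. Of 7 stellate cell and myofibroblast markers, 2 were higher (Col1a1 and Des) and 1 lower (Lrat) in NASH-CH, with sums of 272 to 411 CPM against 273 to 365. Cholangiocyte markers summed to 6.53 to 51.5 CPM in NASH-CH against 8.43 to 10.5 in control rats, with medians of 14.5 and 9.97. NASH-CH rat 5 had the highest level of its group for each of the 6 cholangiocyte markers. The same rat was the lowest of its group for Cps1, Otc, Arg1, Nags and Slc25a15. Endothelial markers summed to 154 to 262 CPM in NASH-CH against 184 to 260 in control rats, and lymphocyte markers to 10.4 to 23.6 against 6.29 to 13.7. Of the markers tested in these last 3 lists (4, 5 and 2), 1 endothelial marker (Vwf) was higher in NASH-CH than in control rats. The others did not pass in that comparison. In NASH-CH against NASH, 3 stellate cell and myofibroblast markers (Col3a1, Col1a1 and Des) and 1 cholangiocyte marker (Spp1) were higher. No other marker of these lists passed between the models, where 4.20% of all tested genes were called. No marker in the tables was at 0 in all rats of a group. The part of the cell mixture in the levels of the members, Glul and Glud1 was not tested.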

How the data were processed

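Whole-liver RNA of 18 rats was sequenced. Per the labels, stranded mRNA libraries were made, reads were checked and trimmed with FastQC and Trim Galore, and STAR and RSEM were run on build Rnor_6.0 with Ensembl release 95, with no versions given. The deposited values are RSEM expected counts, unnormalised estimates of reads per gene, made by the authors for each rat, and they were rounded to whole numbers here. The strand setting of the counting was not given in the sources used here. The labels and the study's methods name different RNA extraction kits.

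TMM scaling (edgeR 4.0.16) and limma-voom (limma 3.58.1, R 4.3.3) with moderated tests were used, as in the study's methods. Chosen here were 1 fit of all 18 rats with a mean per group, the filter filterByExpr and Benjamini-Hochberg adjustment over 12904 genes at 0.05. For NASH-CH against control the study reported far fewer genes at an FDR under 0.05 than were called here. The reason was not tested. The tests of differences are two-sided. Log2 CPM for correlations used a prior count of 2. The 3 ratios (prior count 0.5) were compared by two-sided exact permutation tests over rats, with adjustment over 9 tests, and 1 ratio and the gene it needs are not reported here. Alternatives were the edgeR quasi-likelihood test, DESeq2 1.42.0, other scalings and filters, pairs of groups fitted alone, sample weights, a replicate block, each rat left out and, chosen after seeing the data, libraries thinned to the smallest total and a fit without NASH-CH rats 5 and 6. The scripts were tested on simulated data.

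Named genes were all members, further nitrogen genes past the threshold with Glul and Arg2, and up to 4 genes past it per zonation or regulator list, by their p in NASH-CH. The members and lists were chosen with earlier results of these data known. Of the list symbols, Nos2, Col1a2 and Pecam1 had no row, and Nr3c1 had 2. Members were matched by symbol, and the sequences come from RefSeq (GRCr8). Groups come from the labels, whose replicate numbers were not treated as pairs. The labels do not say whether libraries were prepared together. Within groups no 2 libraries agreed within counting noise (chi-square over its degrees of freedom at least 41.8, 28.3 and 71.1 for control, NASH and NASH-CH pairs), so each counted once.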

Additional observations from a re-analysis of the deposited data

Results flagged for a closer look

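Single rats stood far from the other 5 of their group in 6 of the 60 gene and ratio groups examined, by the gap to the nearest rat relative to the range of the group, and chance flags about 1 group in 20. The causes were not tested.

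Among the members, NASH rat 4 had the lowest Otc level of its group at 184 CPM, with the next NASH rat at 308. Control rat 6 had an Asl level of 516 CPM, with the next control rat at 276.

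Among the other genes, NASH-CH rat 2 was at 6.79 CPM for Rhbg, with the next at 2.36. NASH-CH rat 1 was at 19.4 CPM for Cyp2f4, with the next at 13.5, and NASH-CH rat 6 was at 11.0 CPM for Nr1i3, with the next at 6.84. Control rat 6 was at 1954 CPM for Cyp2e1, with the next control rat at 822.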

How the results depend on the processing

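With libraries scaled by their total alone, 1 member (Cps1) passed in NASH-CH against control, the only member call among 264 values under the other settings, and 0 of 288 values passed with 1 rat left out (lowest adjusted p = 0.0659, Ass1 in NASH). That scaling put the median log2 fold change over the tested genes at 0.23 (NASH) and 0.27 (NASH-CH) against control, and its calls split into 785 higher and 80 lower in NASH and 2781 and 489 in NASH-CH, against 204 and 199, and 1082 and 1110, with TMM. It turned Otc to 0.070 and Glud1 to 0.082 in NASH, and Otc to 0.18 and Arg1 to 0.24 in NASH-CH.

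Other small differences that changed sign, none past the threshold, were Gls2 in NASH (−0.023 with edgeR, −0.026 with DESeq2, and −0.14 to 0.11 with 1 rat left out) and Arg1 in NASH-CH (0.049 with edgeR, 0.044 with DESeq2, 0.00011 with at least 10 counts in every sample, 0.19 with quality weights, and −0.11 to 0.16 with 1 rat left out). Otc in NASH-CH was 0.014 with quality weights and −0.19 to 0.044 with 1 rat left out. Between the models, quality weights gave 0.076 for Asl and 0.072 for Slc25a15, and leaving out 1 rat gave −0.050 to 0.11 for Cps1, −0.079 to 0.20 for Otc and −0.11 to 0.037 for Asl. Without NASH-CH rats 5 and 6, an alternative chosen after seeing the data, Otc was 0.16 and Arg1 0.26 in NASH-CH against control, and Asl 0.11, Arg1 0.056 and Slc25a15 0.13 between the models.

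Called genes in NASH against control numbered 403, and 652 with edgeR, 1228 with DESeq2, 865 with total scaling, 268 without a filter, 644 with the 2 groups alone, 1509 with quality weights, 1014 without the 2 NASH-CH rats and 128 to 982 with 1 rat left out (lowest without control rat 3, highest without control rat 6). In NASH-CH against control they numbered 2192, and 5495 without a filter and 1408 with the 2 groups alone. Between the models they numbered 542, and 949 with DESeq2, 2649 without a filter, 349 with the 2 groups alone and 346 to 591 with 1 rat left out. The causes were not tested. Splits without a filter were 1529 higher and 3966 lower in NASH-CH and 522 and 2127 between the models, against 234 and 308 with it.

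The Cps1 to Glul ratio in NASH-CH against control kept its call with 1 rat left out (1.15 to 1.44) and without NASH-CH rats 5 and 6 (1.30), and missed it by medians (1.24). Between the models it was 0.588 to 0.828 with 1 rat left out. The Arg1 to Arg2 ratio in NASH-CH was 0.069 with a prior count of 2, 0.17 without rats 5 and 6, and −0.56 to 0.011 with 1 rat left out.

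Rats that share a replicate number did not deviate together (mean r of 0.05, 0.07 and 0.02 in the 3 comparisons, over 0.1 in 2, 1 and 0 of 6 pairs). The replicate block gave 444, 2095 and 540 called genes, changed no member call, and moved Slc1a2 in NASH-CH past the threshold (1.53, adjusted p = 0.0406). In the blocked sign-flip test the Cps1 to Glul difference of 1.30 had an exact p of 0.03125, the smallest 6 pairs allow. Its adjusted p over the 9 ratio tests was 0.281. A p at that floor passes the adjustment only where several of the other ratio tests are at or near it. At these depths the counts of members exceed 400 in every rat, and the spread between 6 rats sets the precision.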
